A study of Homo sapiens with 10 samples.

Results

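The genes described here are 3 of the mismatch repair pathway (MSH3, MSH6 and PMS2) and the 5 RecQ helicase genes of the human genome (WRN, BLM, RECQL, RECQL4 and RECQL5). They were chosen by symbol in the table of a pooled CRISPR knockout screen, which holds 18686 gene symbols. All 8 were found, each with 3 sgRNAs, and the 24 sgRNAs were followed through the 10 libraries of the series.

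The screen was run in 22Rv1, a human prostate cancer cell line. One arm was 22Rv1 overexpressing NMYC, the protein of MYCN, and the other was parental 22Rv1. Both were infected with the viral sgRNA library lentiCRISPRv2_B at a multiplicity of 0.3 and selected with puromycin, so every library comes from Cas9-edited cells and no arm without sgRNAs is among the 10 libraries. Genomic DNA was taken at T0, after selection, and from duplicate cultures at T6 and T12. The 5 NMYC libraries were 1 at T0, 2 at T6 and 2 at T12, and the 5 parental libraries were divided in the same way. The design text asks which knockouts are harmful when MYCN is overexpressed. The labels describe growth over 12 generations in all, and whether T6 and T12 count generations or passages is not stated there, nor whether the NMYC line is 1 clone or a pool. As the labels describe it, the duplicates were plated after infection, and each arm has 1 T0 library here, so a change from T0 rests on that single library and p-values measure only spread that came up later. Amplicons of sgRNAs carry no expression, so the cell line could not be checked against marker genes.

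Mismatch repair corrects errors left by DNA polymerases. MutS complexes find the error, MutL complexes nick the new strand, and an exonuclease, a polymerase and a ligase replace the stretch. RecQ helicases unwind branched and repetitive DNA at stalled forks and in recombination. 22Rv1 is known as a microsatellite unstable line, one in which mismatch repair is defective and short repeats change length. Cell lines of that kind are known to need WRN, whose loss breaks their DNA at expanded repeats. In a pooled screen an sgRNA is lost over time if its target is needed for growth and gained if its target restrains growth.

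Many of the 24 sgRNAs were already scarce at T0. In the NMYC T0 library 9 of 24 (37.5%) had fewer than 30 counts, against 26.2% of all 54860 gene-targeting sgRNAs. In the parental T0 library 12 of 24 (50%) were below 30, against 36.4% of all. In both T0 libraries at once 7 of 24 were below 30, against 15.8% of all, and these 7 include 2 each against MSH3 and MSH6 and 1 each against BLM, RECQL4 and RECQL5. A ratio taken from so few counts carries a large counting error.

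**Figure D1:**
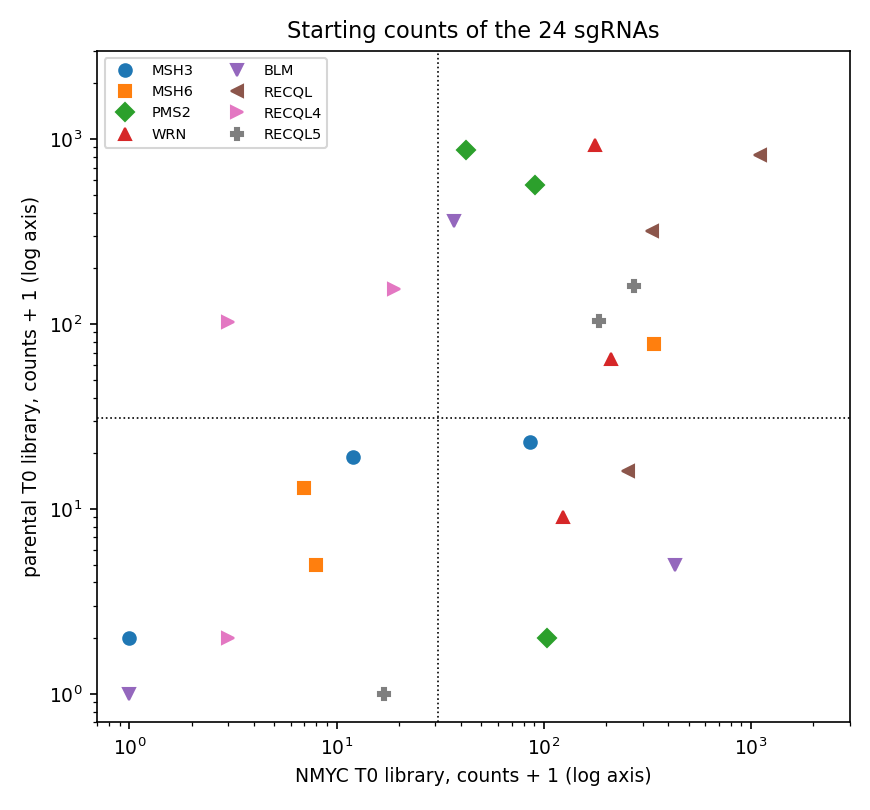
Counts plus 1 of the 24 sgRNAs in the NMYC T0 library (x, log axis) and the parental T0 library (y, log axis), with a symbol for each gene and dotted lines at 30 counts. The 7 sgRNAs at the lower left were scarce in both, and 11 of the 22 kept sgRNAs differed over 4-fold between the libraries.

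Kept sgRNAs needed a mean of at least 20 counts over the 10 libraries, which 22 of the 24 reached. MSH3 sgRNA 2 and RECQL5 sgRNA 1 did not, and these genes were tested on 2 sgRNAs. sgRNAs are numbered 1 to 3 in the order of their library IDs. Levels are CPM, read counts scaled to a common library total after TMM adjustment. The log2 value given for a gene compares the group means of its summed CPM and is set relative to the median gene of the comparison. The totals ran from 8783512 to 18398571 counts per library.

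None of the 8 genes passed the test in any of the 7 comparisons made. At T12 against T0 in NMYC cells 0 of 8 passed in either direction (rank aggregation on edgeR p-values, adjusted p of 0.05), as did 0 of all 18197 genes tested (0%). At an unadjusted p under 0.05, 0 of 8 were lower (4.99% of all genes) and 1 of 8, RECQL4, was higher (5.09% of all genes). In parental cells 0 of 8 passed (0% of all genes), with 0 lower and 0 higher unadjusted (5.06% and 4.86% of all genes). With DESeq2 p-values, and with the edgeR test on summed counts, 0 of 8 passed in both arms. By rank aggregation on edgeR p-values the smallest adjusted p among the 8 genes was 0.954 in NMYC cells and 0.978 in parental cells. By edgeR on summed counts it was 0.424, for BLM, in NMYC cells and 0.266, for MSH3, in parental cells.

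The same held for single sgRNAs by edgeR. In NMYC cells 0 of the 22 kept sgRNAs passed an adjusted p of 0.05 between T12 and T0, against 0.0132% of all 53040 sgRNAs, and 1 of 22 lay under 0.05 unadjusted (6.79% of all). In parental cells 0 of 22 passed (0.0226% of all), and 4 of 22 lay under 0.05 unadjusted (11.2% of all). DESeq2, which called 2.94% of all sgRNAs in NMYC cells and 11.2% in parental cells, called 2 and 5 of the 22. In NMYC cells these were BLM sgRNA 1 as higher (DESeq2 log2 of 15.8) and PMS2 sgRNA 2 as lower (-7.74). BLM sgRNA 1 had 0 counts in both T0 libraries, 2 and 1 at NMYC T12 and 0 and 718 at parental T12. In parental cells BLM sgRNA 1 (23.7), MSH3 sgRNA 1 (5.13), PMS2 sgRNA 2 (7.68) and WRN sgRNA 3 (6.29) were called as higher. PMS2 sgRNA 3 was called as lower there (-9.43).

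As a group the 8 genes were spread over both directions. In NMYC cells their log2 values ran from -4.21 to 3.48 around a median of 0.33, and 3 of 8 were under the median gene. In parental cells they ran from -2.04 to 4.68 around a median of 0.95, again with 3 of 8 under it. By construction the median of all genes is 0, with 50% of them under it. The middle 90% of all genes lay between -2.51 and 2.41 in NMYC cells and between -2.51 and 3.55 in parental cells.

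**Figure D2:**
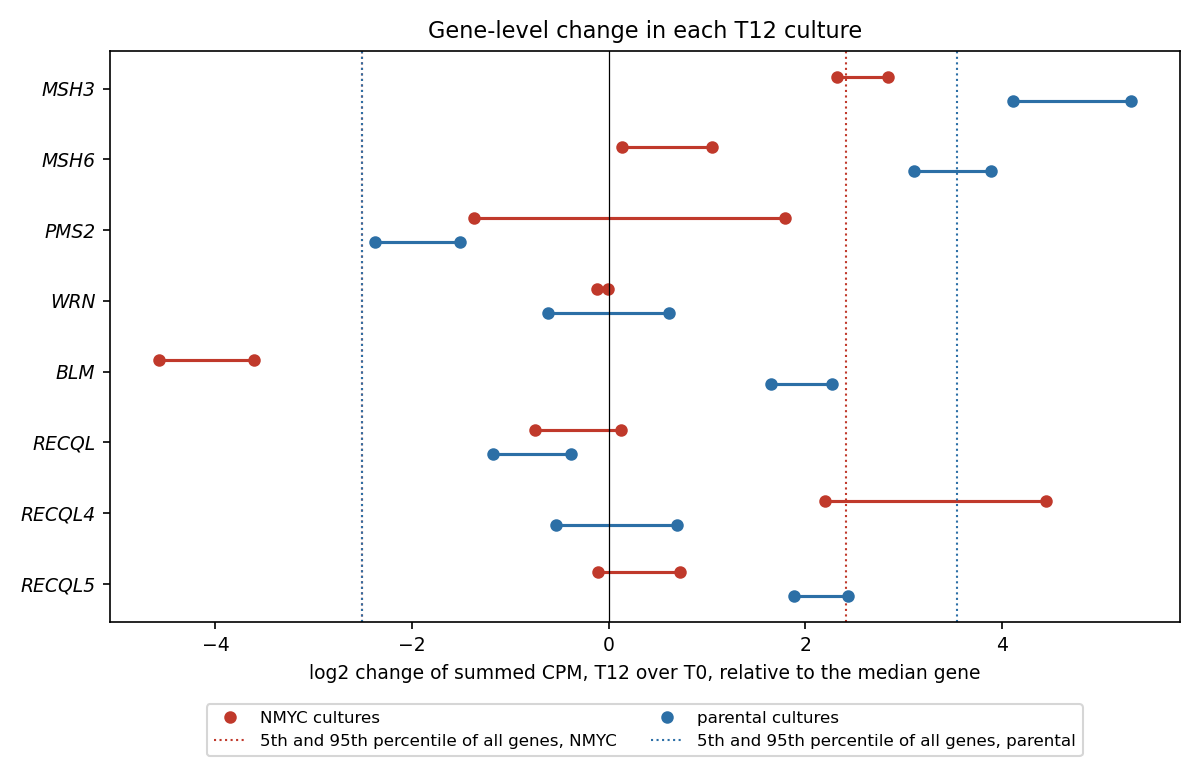
Log2 change of summed CPM from T0 to T12 relative to the median gene (x) for each gene (y), with 1 point for each of the 2 NMYC cultures (upper line of a gene) and the 2 parental cultures (lower line). Dotted lines mark the 5th and 95th percentile of all genes in each arm. BLM lies at -3.61 and -4.58 in NMYC cultures and at 2.27 and 1.65 in parental cultures. WRN lies at -0.01 and -0.12 in NMYC cultures and at 0.62 and -0.62 in parental cultures.

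WRN, a helicase that also carries an exonuclease, had log2 values near 0 in both arms and did not pass the test. Its summed level in NMYC cells was 39.5 CPM at T0, 20.6 and 29.4 at T6, then 32.8 and 36.3 at T12. In parental cells it was 74.2 CPM at T0, 54.6 and 12.6 at T6, then 95.6 and 40.5 at T12. The NMYC T12 cultures lay slightly below their T0 library, and the parental T12 cultures lay on both sides of theirs. The log2 value was -0.22 in NMYC cells (adjusted p = 1 for lower by rank aggregation on edgeR p-values) and -0.03 in parental cells (adjusted p = 0.991). In NMYC cells 44% of all genes lay lower than WRN, and in parental cells 49.4%.

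The 3 sgRNAs against WRN differed in direction. WRN sgRNA 1 had 175 counts at NMYC T0, 257 and 273 at T6, then 192 and 33 at T12, and in parental cells 922 at T0, 540 and 54 at T6, then 374 and 176 at T12. WRN sgRNA 2 had 211 counts at NMYC T0, 39 and 69 at T6, then 8 and 12 at T12, and in parental cells 64 at T0, 101 and 4 at T6, then 11 and 11 at T12. In CPM both sgRNA 1 and sgRNA 2 were lower than at T0 in all 4 T12 cultures, sgRNA 1 only slightly in NMYC replicate 1, at 12.6 CPM against 13.6 CPM at T0. WRN sgRNA 3 went the other way, with 123 counts at NMYC T0, 104 and 27 at T6, then 302 and 459 at T12, and in parental cells 8 at T0, 314 and 30 at T6, then 1095 and 465 at T12.

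The T12 sum of WRN was mostly sgRNA 3 in each of the 4 cultures. On the log2(CPM + 1) scale, where a pseudocount of 1 CPM understates changes of scarce sgRNAs, the changes of the 3 sgRNAs from T0 to T12 were -1.11, -3.37 and 1.33 in NMYC cells. In parental cells they were -2.01, -1.77 and 4.86. The smallest of these edgeR p-values after adjustment was 0.419, for sgRNA 3 in parental cells. Among 934 kept non-targeting sgRNAs, which cut no gene, the middle 90% changed between -3.35 and 2.86 in NMYC cells and between -3.84 and 3.44 in parental cells. sgRNA 2 in NMYC cells lay just below that range, and sgRNA 3 in parental cells lay above it. With at least 30 counts required in both T0 libraries sgRNA 3 dropped out, and the log2 value of WRN became -1.69 in NMYC cells and -1.48 in parental cells (adjusted p = 0.995 and 0.999, rank aggregation on edgeR p-values). It dropped out for its 8 counts at parental T0, although it had 123 at NMYC T0. The NMYC value of -1.69 thus leaves out an sgRNA that was not scarce in that arm and rose there.

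**Figure D3:**
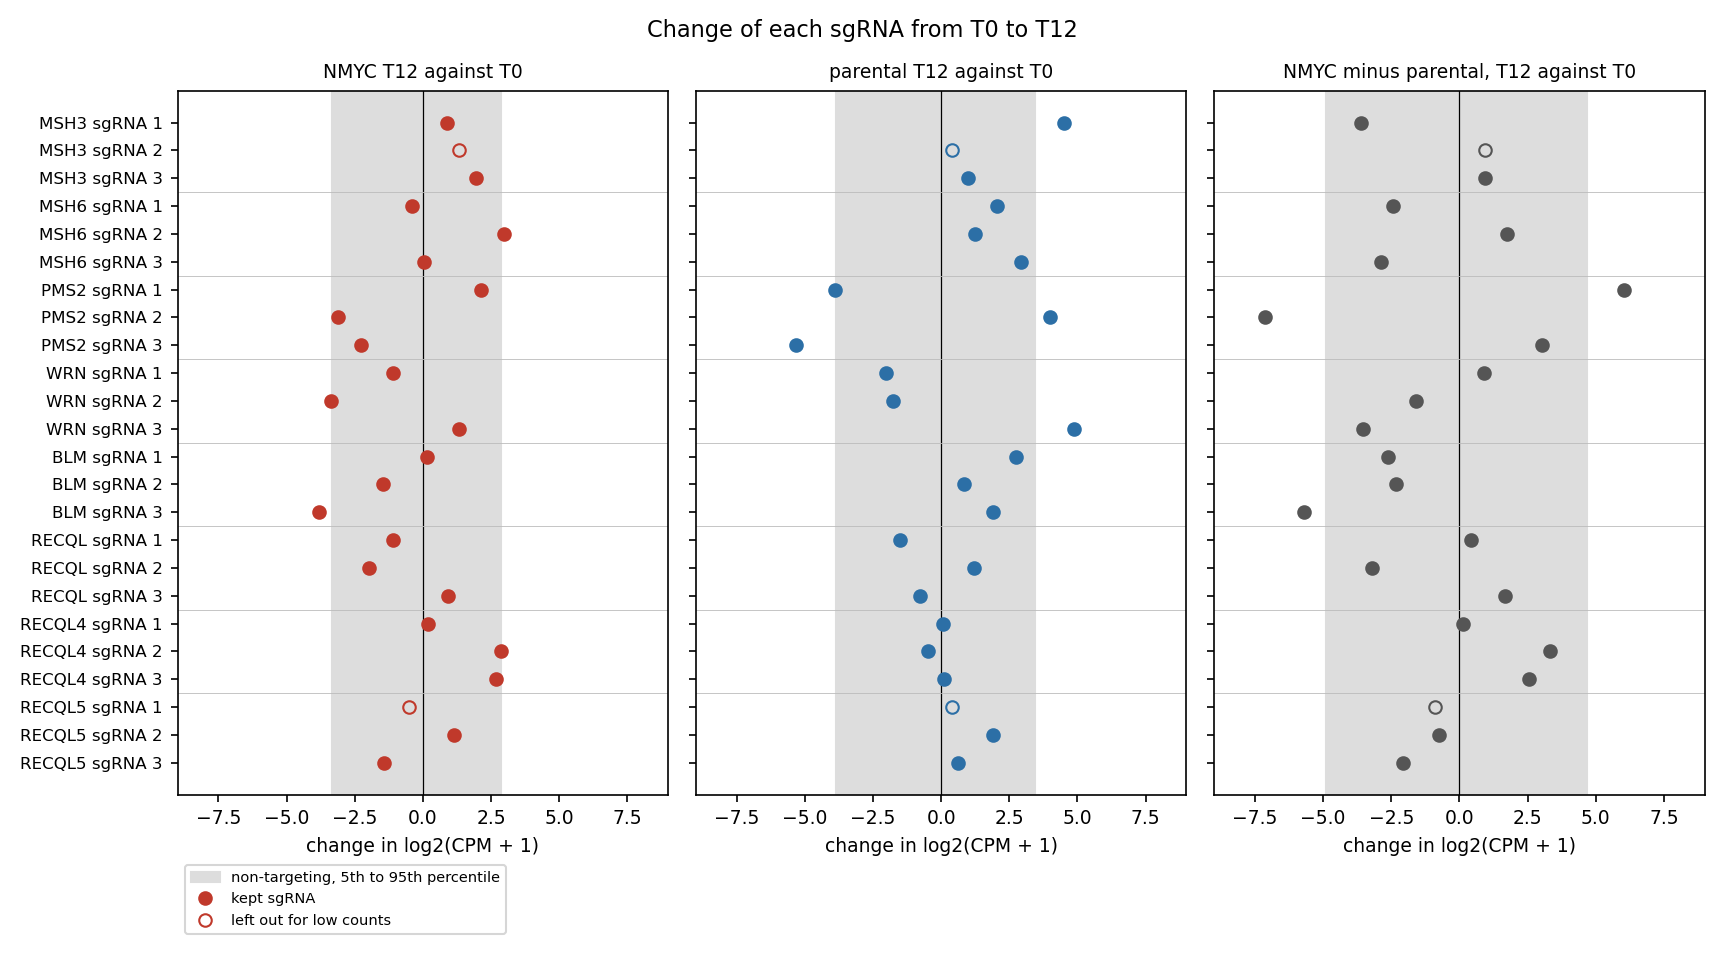
Change in log2(CPM + 1) of each sgRNA (y) from T0 to T12 in NMYC cells (left), in parental cells (middle) and as the difference NMYC minus parental (right). Filled points are kept sgRNAs, open points those left out for low counts, and the grey band holds the 5th to 95th percentile of 934 non-targeting sgRNAs. In the NMYC panel 2 of the 22 kept sgRNAs lie below the band and 1 above it (6.24% and 4.80% of all gene-targeting sgRNAs), in the parental panel 2 and 3 (5.73% and 5.52%).

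BLM, the helicase that with TOP3A, RMI1 and RMI2 resolves crossed DNA strands without exchange, showed the widest gap between the arms of the 8 genes at T12. Its summed level in NMYC cells was 36.2 CPM at T0, 5.50 and 6.86 at T6, then 2.49 and 1.51 at T12. In parental cells it was 27.0 CPM at T0, 13.5 and 8.60 at T6, then 110 and 71.3 at T12. Both arms lay lower at T6 than at T0, and at T12 the NMYC cultures lay lower still while the parental sums lay above T0. In parental T12 replicate 2 the sum exceeded T0 only through sgRNA 1, at 44.6 CPM there and 0 at T0. That sgRNA was kept largely through its counts in this culture. sgRNA 2 was at 26.65 CPM in this culture and at 26.73 CPM at parental T0. The T12 cultures of the arms did not overlap, at 2.00 ± 0.69 CPM in NMYC cells and 90.5 ± 27.1 CPM in parental cells (SD, n = 2 each). With 2 cultures an arm this is common. Both NMYC cultures lay below both parental cultures in 4 of the 8 genes (MSH6, WRN, BLM and RECQL5; 19% of all genes) and above them in 1, RECQL (14.8% of all genes).

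The change of BLM did not pass the test. Its log2 value of -4.21 in NMYC cells was undercut by 0.599% of all genes (adjusted p = 0.986 by rank aggregation on edgeR p-values, and 0.424 by edgeR on summed counts). In parental cells the log2 value was 1.84 (adjusted p = 0.978 for higher). The sum rests on few sgRNAs. BLM sgRNA 3 had 430 counts at NMYC T0, 71 and 47 at T6, then 23 and 20 at T12, and in parental cells 4 at T0, 36 and 1 at T6, then 328 and 1 at T12. BLM sgRNA 2 had 36 counts at NMYC T0, 14 and 38 at T6, then 13 and 0 at T12, and in parental cells 358 at T0, 141 and 23 at T6, then 1369 and 429 at T12. BLM sgRNA 1 had 0 counts in both T0 libraries, at most 22 in the later NMYC libraries, and in parental cells 60 and 36 at T6 and 0 and 718 at T12.

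The NMYC T0 level of BLM was mainly sgRNA 3, which was nearly absent from the parental T0 library. In parental cells each T12 culture had its own set of abundant BLM sgRNAs, 2 and 3 in the one and 2 and 1 in the other. The change of sgRNA 3 in NMYC cells was -3.80 on the log2(CPM + 1) scale, below the range of the non-targeting sgRNAs (edgeR adjusted p = 0.785).

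**Figure D4:**
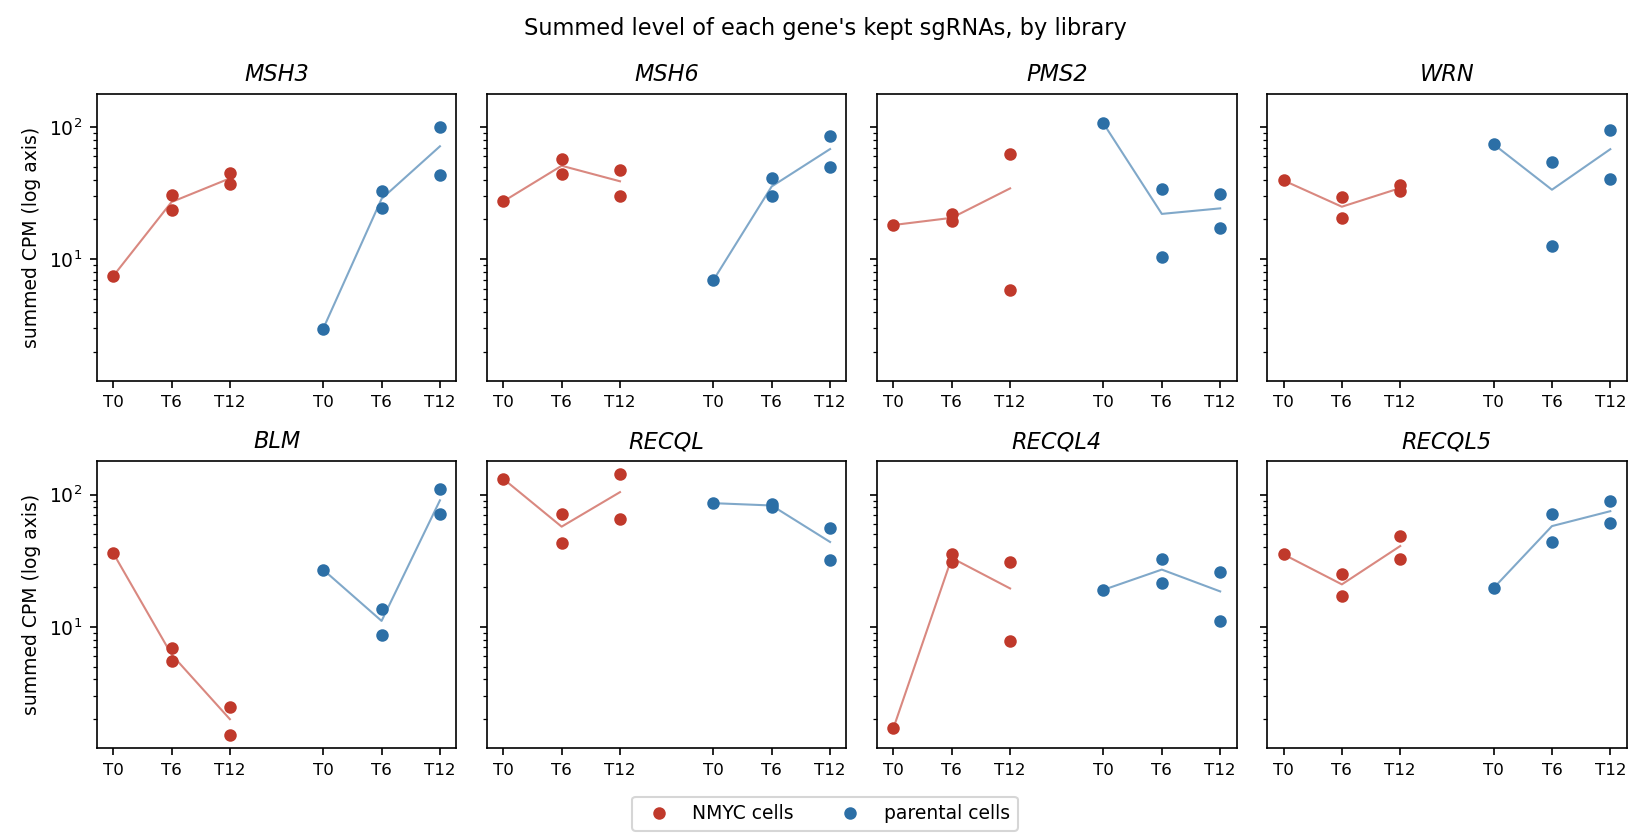
Summed CPM of the kept sgRNAs of each gene (y, log axis) in every library, with NMYC cells at the left and parental cells at the right of each panel at T0, T6 and T12. Points are libraries and lines join group means. BLM reaches 2.00 CPM at NMYC T12 against 90.5 CPM at parental T12, and WRN stays between 12.6 and 95.6 CPM throughout.

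RECQL, the RecQ helicase known for restarting reversed replication forks, had the highest summed level of the 8 genes at NMYC T0 and did not pass the test. Its summed level in NMYC cells was 132 CPM at T0, 43.3 and 71.1 at T6, then 65.7 and 143 at T12. In parental cells it was 86.2 CPM at T0, 80.0 and 85.4 at T6, then 32.1 and 55.5 at T12. The NMYC T12 cultures lay on both sides of T0, and both parental T12 cultures lay below it. The log2 value was -0.36 in NMYC cells and -0.88 in parental cells (adjusted p = 1 and 0.999 for lower, rank aggregation on edgeR p-values). RECQL sgRNAs 1 and 2 had negative changes in NMYC cells and sgRNAs 1 and 3 in parental cells. At T0 the 3 sgRNAs had 1110, 253 and 334 counts in the NMYC library and 823, 15 and 316 in the parental library.

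RECQL4, which acts in the start of DNA replication, had the highest log2 value of the 8 genes in NMYC cells, 3.48. Its summed level there was 1.71 CPM at T0, 30.8 and 35.6 at T6, then 31.1 and 7.86 at T12. In parental cells it was 19.0 CPM at T0, 21.5 and 32.7 at T6, then 26.0 and 11.1 at T12. All 4 later NMYC cultures were above their T0 library, and 2 of the 4 lay within the parental range of 11.1 to 32.7 CPM. The later cultures of an arm share a single T0 library. How many of all genes lie on the same side of it throughout was not counted, here or for the genes below. The NMYC T0 library held only 18, 2 and 2 counts of its 3 sgRNAs, so the ratio rests on 22 counts. RECQL4 had an unadjusted p of 0.0499 for higher by the exact null of the rank aggregation, and its adjusted p was 0.954. In parental cells its log2 value was 0.06.

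RECQL5, a helicase that binds RNA polymerase II and dismantles recombination filaments, was tested on sgRNAs 2 and 3. Its summed level in NMYC cells was 35.3 CPM at T0, 24.9 and 16.98 at T6, then 49.0 and 32.7 at T12. In parental cells it was 19.6 CPM at T0, 43.9 and 71.7 at T6, then 88.8 and 61.0 at T12. Every later parental culture lay above T0, and the NMYC cultures lay below it at T6 and around it at T12. The log2 value was 0.18 in NMYC cells and 2.03 in parental cells (adjusted p = 0.978 for higher). At parental T12 the 2 cultures got this level from different sgRNAs. sgRNA 3 had 1108 and 72 counts there, and sgRNA 2 had 267 and 910.

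MSH3 and MSH6 had higher levels than at T0 in every later culture of both arms, and neither passed the test. Each forms a MutS complex with a common partner, MSH6 for base mismatches and short loops, MSH3 for longer loops. The summed level of MSH3 in NMYC cells was 7.45 CPM at T0, 30.7 and 23.5 at T6, then 44.6 and 37.3 at T12, and in parental cells 2.99 at T0, 32.9 and 24.5 at T6, then 99.8 and 43.4 at T12. That of MSH6 in NMYC cells was 27.4 CPM at T0, 57.6 and 44.4 at T6, then 47.7 and 30.1 at T12, and in parental cells 6.94 at T0, 29.99 and 41.1 at T6, then 86.2 and 50.3 at T12. That every later culture lay above T0 rests on the single T0 library of each arm. The share of all genes with this pattern was not counted. Among the T12 cultures those of MSH3 overlapped between the arms.

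The log2 value of MSH3 was 2.43 in NMYC cells and 4.68 in parental cells, above 95.1% and 98.2% of all genes (adjusted p = 0.963 and 0.978 for higher, rank aggregation on edgeR p-values). That of MSH6 was 0.48 in NMYC cells and 3.39 in parental cells (adjusted p = 0.999 and 0.978). In kept sgRNAs MSH3 began with 96 counts at NMYC T0 and 40 at parental T0, and MSH6 with 353 and 93. MSH3 sgRNA 1 had 85 counts at NMYC T0, 594 and 266 at T6, then 675 and 46 at T12, and in parental cells 22 at T0, 509 and 117 at T6, then 1221 and 699 at T12. MSH3 sgRNA 3 had 11 counts at NMYC T0 and 7 and 471 at T12, and 18 counts at parental T0 and 323 and 0 at T12.

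MSH6 sgRNA 3 was the best measured of that gene. It had 340 counts at NMYC T0, 338 and 261 at T6, then 504 and 310 at T12, and in parental cells 77 at T0, 338 and 160 at T6, then 793 and 798 at T12. Its change was 0.04 on the log2(CPM + 1) scale in NMYC cells and 2.93 in parental cells, neither past the test. MSH6 sgRNAs 1 and 2 had 7 and 6 counts at NMYC T0 and 4 and 12 at parental T0. With at least 30 counts required in both T0 libraries, MSH3 and MSH6 kept fewer than 2 sgRNAs each and could not be tested.

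PMS2, the subunit that gives the main MutL complex its nicking activity, had sgRNAs that opposed each other in both arms. PMS2 also has near-identical pseudogene copies, so the target of its sgRNAs is uncertain here. Its summed level in NMYC cells was 18.2 CPM at T0, 19.3 and 21.8 at T6, then 5.89 and 62.9 at T12. In parental cells it was 107 CPM at T0, 33.8 and 10.3 at T6, then 17.3 and 31.3 at T12. The NMYC T12 cultures lay on both sides of T0, and all 4 later parental cultures lay below it. The log2 value was 0.89 in NMYC cells and -2.04 in parental cells, where 8.8% of all genes were lower (adjusted p = 0.989 for lower, rank aggregation on edgeR p-values). Without NMYC T12 replicate 2 the NMYC value was -1.37. With at least 30 counts required in both T0 libraries the value was 1.87 in NMYC cells and -3.21 in parental cells (adjusted p = 0.966 and 0.984, same test). This left out sgRNA 2 in both arms for its 1 count at parental T0, although it had 103 at NMYC T0.

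PMS2 sgRNA 1 had 41 counts at NMYC T0 and 67 and 870 at T12, and in parental cells 867 at T0 and 3 and 251 at T12. PMS2 sgRNA 2 had 103 counts at NMYC T0 and 0 and 1 at T12, and in parental cells 1 at T0 and 262 and 253 at T12. PMS2 sgRNA 3 had 90 counts at NMYC T0 and 23 and 1 at T12, and in parental cells 560 at T0 and 2 and 0 at T12. sgRNA 3 was lower than at T0 in all 4 T12 cultures, and the changes of the other 2 had opposite signs in the 2 arms. In parental cells the change of sgRNA 3 was -5.33 on the log2(CPM + 1) scale, the lowest of the 22 there (edgeR adjusted p = 0.326), and that of sgRNA 2 was 4.01.

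The comparison for the design's question is the difference NMYC minus parental of the change from T0 to T12. Of the 8 genes 0 passed in either direction (0% of all genes; rank aggregation on edgeR p-values), and at an unadjusted p under 0.05 there were 0 lower and 0 higher (4.79% and 4.81% of all genes). BLM was lowest at -5.93 (adjusted p = 0.991), with 1.39% of all genes lower. On the log2(CPM + 1) scale the kept sgRNAs of BLM differed by -2.62, -2.32 and -5.70. Those of RECQL5 differed by -0.76 and -2.06, and those of RECQL4 by 0.15, 3.33 and 2.57. How often kept sgRNAs share a sign among all genes was not counted, so this agreement is no result about these genes. BLM sgRNA 1 had 0 counts in both T0 libraries and in 1 parental T12 culture. The other parental T12 culture, with 718 counts, gave it most of its mean of 84 counts. That culture both kept this sgRNA in the test and set its negative sign. In value MSH6 followed at -2.80, MSH3 at -2.14 and RECQL5 at -1.74. On the other side were RECQL4 at 3.54, PMS2 at 3.04 and RECQL at 0.63. Without NMYC T12 replicate 2 the difference was 0.79 for PMS2 and 4.51 for RECQL4, and without NMYC T12 replicate 1 it was 2.28 for RECQL4. With at least 30 counts required in both T0 libraries, which left out PMS2 sgRNA 2, it was 5.14 for PMS2 (adjusted p = 0.93, rank aggregation on edgeR p-values). WRN had a difference of -0.08, with 48.6% of all genes lower, so the change of its sum was close to that of the median gene. On the log2(CPM + 1) scale its sgRNAs 1, 2 and 3 differed by 0.90, -1.60 and -3.52. Without parental T12 replicate 2 the difference of WRN was -0.78, and without replicate 1 it was 0.47.

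Of the 22 sgRNAs 0 passed in this difference by edgeR (0% of all), and 3 lay under 0.05 unadjusted (9.95% of all). DESeq2, which called 6.52% of all, called 1, PMS2 sgRNA 2, with a negative value. The starting levels of the arms enter this difference. At T0 the log2 ratio of summed CPM, NMYC over parental and relative to the median gene, was -3.34 for RECQL4, -2.42 for PMS2 and 2.12 for MSH6. At T12 it was 0.15, 0.57 and -0.74 for the same genes. For BLM it was 0.56 at T0 and -5.43 at T12, where no other of the 8 genes exceeded 2 in size. The T0 sums of BLM came from different sgRNAs in the arms. sgRNA 3 was at 33.4 CPM at NMYC T0 and 0.30 CPM at parental T0, and sgRNA 2 at 2.79 and 26.7 CPM. Unequal starting levels of single sgRNAs therefore enter the difference of BLM as well.

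Changes up to T6 and from T6 to T12 gave 0 of 8 genes past the test in each arm (0% of all genes in all 4 comparisons, rank aggregation on edgeR p-values). From T0 to T6 in NMYC cells RECQL4 had a log2 value of 4.52, above 99.8% of all genes, and MSH6 one of 1.14. Both were higher at an unadjusted p under 0.05 (0.0284 and 0.0466 by the exact null, 4.97% of all genes), with adjusted p of 0.964 and 0.996. From T6 to T12 in parental cells BLM had a log2 value of 2.88, above 99.5% of all genes (unadjusted p = 0.0156 by the exact null, 4.88% of all genes, adjusted p = 0.906). Unadjusted, at 0.05, the genes lower and higher numbered 0 and 2 of 8 at NMYC T6 against T0 (5.12% and 4.97% of all genes) and 0 and 0 at parental T6 against T0 (4.95% and 4.9%). They were 0 and 0 at NMYC T12 against T6 (4.93% and 4.72%) and 0 and 1 at parental T12 against T6 (4.9% and 4.88%). In NMYC cells BLM lay at -2.31 from T0 to T6 and at -1.97 from T6 to T12. WRN lay at -0.42 and 0.12 in NMYC cells and at -0.94 and 0.87 in parental cells in these intervals. Of the 22 sgRNAs 0 passed in any of these 4 comparisons by edgeR (0.00189% of all sgRNAs at parental T6 against T0 and 0% in the other 3). Unadjusted, 0 of 22 lay under 0.05 at NMYC T6 against T0 (3.7% of all) and 0 at parental T6 against T0 (9.26%), by edgeR. DESeq2 called 1, BLM sgRNA 1, as higher from 0 counts at T0 in each of these. It called 0.172% of all sgRNAs there in NMYC cells and 6.99% in parental cells. From T6 to T12 the unadjusted edgeR count was 1 in NMYC cells (4.41%) and 2 in parental cells (6.44%). DESeq2 called 0 there, against 0.897% of all sgRNAs in NMYC cells and 2.51% in parental cells.

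The median difference between the 2 cultures at T12 was 0.87 on the log2(CPM + 1) scale for the 22 sgRNAs in NMYC cells, against 1.48 for all sgRNAs, and 1.21 against 1.58 in parental cells. At T12 6 of 22 differed by over 4-fold between NMYC cultures (37.1% of all) and 8 of 22 between parental cultures (40.8% of all). The pseudocount of 1 CPM narrows such differences for scarce sgRNAs. Examples at NMYC T12 are PMS2 sgRNA 2, with 0 and 1 counts, and BLM sgRNA 1, with 2 and 1. The lower medians therefore do not show that these sgRNAs were better reproduced than others.

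Partner genes of both pathways also stayed short of the test. Of 18 genes of later mismatch repair steps and their partners, 0 passed in either arm at T12 against T0 by rank aggregation on edgeR p-values. Unadjusted, at 0.05, 1 was lower and 0 higher in NMYC cells (4.99% and 5.09% of all genes). In parental cells it was again 1 lower and 0 higher (5.06% and 4.86% of all genes). Medians of the 18 were -0.08 in NMYC cells (9 of 18 below the median gene) and 0.75 in parental cells (5 of 18 below). PCNA, the sliding clamp, had a log2 value of -4.04 in NMYC cells (adjusted p = 0.98 for lower, edgeR and rank aggregation) and 0.06 in parental cells. Its T0 level was 242 CPM in the NMYC library and 17.1 CPM in the parental library. At T12 its means were alike, at 15.0 CPM in NMYC cells and 16.7 CPM in parental cells. Among the clamp loader subunits RFC4 lay at -1.64 in NMYC cells and 0.01 in parental cells, and RFC2 at -1.92 in NMYC cells and -1.31 in parental cells. RFC4 also began apart, at 190 CPM at NMYC T0 and 54.5 CPM at parental T0. RFC3 lay at 1.56 in NMYC cells and 2.16 in parental cells, and RFC1 at 0.25 in NMYC cells and 1.21 in parental cells. EXO1, the exonuclease of the pathway, lay at 2.02 in NMYC cells and -1.62 in parental cells, from T0 levels of 16.7 and 90.9 CPM. RPA1, which binds single strands, lay at 0.27 in NMYC cells and 4.85 in parental cells, from T0 levels of 24.8 and 2.69 CPM. MLH3, a MutL subunit, lay at -0.26 in NMYC cells and 0.71 in parental cells. In the difference NMYC minus parental 16 of the 18 were under the median gene, their median was -0.85, and 0 passed the test. Unadjusted, 1 was lower and 1 higher (4.79% and 4.81% of all genes).

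Of 12 listed partners of RecQ helicases and other enzymes of branched DNA, 11 were in the table and tested. Again 0 passed in either arm. Unadjusted, 0 were lower and 0 higher in NMYC cells (4.99% and 5.09% of all genes), and 1 and 0 in parental cells (5.06% and 4.86%). Medians of the 11 were -0.42 in NMYC cells (7 of 11 below) and 0.04 in parental cells (4 of 11 below). TOP3A, the topoisomerase that works with BLM, lay at -1.02 in NMYC cells and 3.95 in parental cells. Its T0 level was 109 CPM in the NMYC library and 4.55 CPM in the parental library. At T12 the arms were alike, at 54.6 ± 40.5 CPM in NMYC cells and 65.7 ± 4.22 CPM in parental cells (SD, n = 2 each). MUS81, a nuclease that cuts branched DNA, lay at -0.42 in NMYC cells and -1.93 in parental cells. XRCC6, a subunit of the Ku end-binding protein, lay at 1.16 in NMYC cells and 0.03 in parental cells, from T0 levels of 19.5 and 60.0 CPM. GEN1, another nuclease of branched DNA, lay at 0.44 in NMYC cells and 2.57 in parental cells, from T0 levels of 38.7 and 10.7 CPM. In the difference NMYC minus parental 5 of the 11 were below the median gene, their median was 0.26, and 0 passed the test. Unadjusted, 0 were lower and 1 higher (4.79% and 4.81% of all genes).

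Cytosolic ribosomal protein genes, which nearly all cells need, serve as a yardstick for loss in these libraries. They had a median log2 value of -0.68 in NMYC cells and -0.42 in parental cells, with 44 and 40 of 72 below the median gene. By the test 0 of the 72 passed in either arm, with 7 lower and 2 higher unadjusted in NMYC cells (4.99% and 5.09% of all genes) and 9 and 3 in parental cells (5.06% and 4.86% of all genes). In the difference NMYC minus parental 40 of the 72 were below the median gene. This list was added after the results were seen.

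Over the 10 libraries the genes whose log2(summed CPM + 1) followed WRN most closely, of 18196 compared, were ACACB (r = 0.957), FAM83G (0.940) and PES1 (0.939). ACACB makes malonyl-CoA at mitochondria and PES1 acts in ribosome assembly. These describe 10 libraries, the 5 of an arm from 1 infected population, and are the largest of so many correlations. Among the other 7 genes described here BLM came nearest to WRN, at 0.580, and MSH6 was at -0.237.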

How the data were processed

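The authors deposited raw counts per sgRNA, 1 column per library, per the file headers; all 10 columns were matched by name (0 unmapped). The submitters' processing notes name MAGeCK; its settings, and any genome build, were not given in the sources used here. Counts were tested as deposited with edgeR 4.0.16 in R 4.3.3 (TMM, quasi-likelihood, 1 mean for each of 6 groups, 4 residual degrees of freedom, all libraries in 1 fit, so each single T0 library is assumed to vary like the duplicates). Of 55849 sgRNAs 53040 were kept. Robust rank aggregation gave a p per gene, over genes with at least 2 kept sgRNAs, with ranks counted up to a one-sided p of 0.25, an exact null, and Benjamini-Hochberg adjustment over all genes for each direction. The scripts were tested on simulated data. Cultures of an arm come from 1 infection, and p-values cover only later spread, which may be technical. PCR reads without molecular identifiers are not independent molecules.

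Per the labels' protocols each replicate was kept in culture through the passages, and titles number replicates 1 and 2 at T6 and at T12; that a number marks the same culture at both times is not stated outright. Deviations of same-numbered cultures at T6 and T12 correlated at -0.0088 in NMYC and 0.065 in parental cells over 53040 sgRNAs. The members and lists were chosen with earlier results of these data known. Named genes are all 8 members, and of each list the 2 smallest gene p per direction in each arm at T12 against T0. Alternatives, 9 kinds, included DESeq2 1.42.0, other size factors and filters, summed counts and left-out libraries.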

Additional observations from a re-analysis of the deposited data

How the results depend on the processing

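The count of the 8 genes past the test was 0 in all 7 comparisons under every alternative run, and so was the count of their sgRNAs except with DESeq2. DESeq2 in place of edgeR gave 5 of their sgRNAs at parental T12 against T0, 2 at NMYC T12 against T0, and 1 each at NMYC T6 against T0, parental T6 against T0 and the difference NMYC minus parental. With the replicate block 0 of the 8 genes and 0 of the 22 sgRNAs passed, and the members' counts stayed at 0 without any T6 or T12 library. Over all sgRNAs the NMYC T12 against T0 count of 7 became 1562 with DESeq2, 177 in the NMYC libraries alone, 0 with median-of-ratios size factors, the T0 minimum or the block, and 0 to 79 without 1 library (79 and 75 without parental T12 replicates 1 and 2). The parental count of 12 became 5944 with DESeq2, 86 with size factors from non-targeting sgRNAs, 5 with the block, 1 in the parental libraries alone, 0 with the T0 minimum, and 0 to 15 without 1 library. In the difference the count of 0 became 3459 with DESeq2 and 0 to 9 without 1 library. At NMYC T6 against T0 0 became 91 with DESeq2 and 19 in NMYC libraries alone, and at parental T6 against T0 1 became 3706 with DESeq2 and 0 with the T0 minimum, each 0 to 3 without 1 library. From T6 to T12 DESeq2 called 476 in NMYC and 1333 in parental cells, against 0 and 0. Over all genes no count exceeded 1. Of 860 recomputed log2 values of the 8 genes 27 moved by more than the spread between replicates and 19 changed sign. DESeq2, the summed-count test and the block do not enter this log2 value, so those runs could not move it. A left-out culture was judged against the spread of its own duplicates, which its removal could seldom exceed. PMS2 in NMYC cells went from 0.89 to -1.37 without NMYC T12 replicate 2 and did not count as moved. These totals therefore do not measure how stable the values are. In the comparisons of T12 with T0 the sign depended on 1 library for PMS2, RECQL and RECQL5 in NMYC cells, RECQL4 and WRN in parental cells, and WRN in the difference. Size factors from non-targeting sgRNAs moved the median gene by -0.30 at parental T12 against T0 and by -0.43 at parental T6 against T0, and gene values are relative to it. A T0 library could not be left out, since each arm has 1, and fits of 1 arm give no difference. Under the T0 minimum of 30 counts only PMS2, WRN, RECQL and RECQL5 could be tested. Few counts at T0 limit MSH3, MSH6 and RECQL4, and in the parental arm also PMS2 sgRNA 2, WRN sgRNA 3 and BLM sgRNAs 1 and 3.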
